A study of Vitis vinifera with 66 samples.

Results

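The chromosome 16 phenylalanine ammonia-lyase (PAL) cluster comprised 10 gene IDs of the grapevine genome, running from VIT_16s0039g01100 to VIT_16s0039g01360, out of 29537 gene IDs in the count table. The members were VIT_16s0039g01100, VIT_16s0039g01110, VIT_16s0039g01120, VIT_16s0039g01130, VIT_16s0039g01170, VIT_16s0039g01240, VIT_16s0039g01280, VIT_16s0039g01300, VIT_16s0039g01320 and VIT_16s0039g01360. They were chosen by ID, with no threshold on measured values, although earlier results of these data were known when they were listed. Each had 1 row in the table. The name PAL came with the list of IDs, since neither the count table nor the reference table used here describes them, and it could not be checked against the counts. Very few reads fell on these genes in any berry sample, 1 library of flooded vines held 22.4% of them, and VIT_16s0039g01130 was the only member with a called change between consecutive time points or between treatments. That call, a fall from T0 to T1 in flooded vines, was lost on leaving out 1 library.

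PAL removes ammonia from phenylalanine and releases cinnamic acid, the entry step of the phenylpropanoid pathway. From this step plants make lignin, flavonoids with the anthocyanins and tannins, stilbenes, and, by an alternative route, salicylic acid. In grapevine the enzyme is encoded by a family of similar genes, several of them side by side in tandem, and in berries the pathway feeds seed and skin tannins before ripening and skin pigments and stilbenes after its onset.

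The 66 libraries, 3 in each of 22 groups, came from berries of potted vines of the white cultivar Sauvignon Blanc, all of 1 clone on the same rootstock. The vines were controls (C), vines waterlogged around budbreak in spring (F), vines under drought followed by a heatwave in summer (H), or vines under both stresses (FH). Sampling was at T0, before irrigation was cut, and 9 (T1, drought at 30% of field capacity, before the heat), 13 (T2, within the heatwave of +5 °C), 15 (T3, its end), 24 (T4, recovery) and 28 days later (T5, harvest), and only C and F had T0 libraries. The summer stress was given in a tunnel of its own, so that stress and tunnel cannot be told apart, and the replicates were berries of separately chosen vines.

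Library totals ranged from 15927671 to 24150978 counted reads (median 19168492), so that 3 reads, taken as the floor for a gene without reads, corresponded to 0.119 to 0.201 CPM, the read count of a gene scaled to a common library size after TMM normalization. HSP101 (VIT_17s0000g07190), a heat-induced chaperone, was used to check the heat labels. At T2 it stood at 1225, 1235 and 508 CPM in H, against 980, 147 and 781 CPM in C, and at 1992, 1400 and 493 CPM in FH, against 470, 217 and 688 CPM in F. The groups overlapped in both pairs, and edgeR called neither difference (adjusted p = 0.69 and 0.4), so that this gene did not separate heated from unheated vines at T2. Libraries T5 F replicates 1 and 2 were closer to each other than other replicate pairs (chi-square per degree of freedom of 1.92 where the next pair had 9.44). They differed by more than counting error, which does not show that they came from separate vines. They were counted as separate samples, so T5 F may hold fewer than 3 independent samples, a limit on every comparison with that group.

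The cluster as a whole was at the edge of detection. Its 10 members took 794 of 1289053161 reads, or 0.616 CPM of the combined libraries, and the median library held 6.5 reads of the cluster. There were 4 libraries without any such read and 14 with fewer than 3, while 8 libraries held more than 20. Members VIT_16s0039g01240, VIT_16s0039g01280 and VIT_16s0039g01320 had 0 reads in all 66 libraries, which allows up to 0.00233 CPM over all libraries together. By comparison, 14.6% of all gene IDs had no read in any library. Only uniquely mapping reads had been counted, so a read that fitted several near-identical copies equally well is in no member's count, and the share of such reads is unknown. These counts therefore measure RNA that could be assigned to a single copy, and a low count cannot be read as absence of PAL transcripts.

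**Figure D1:**
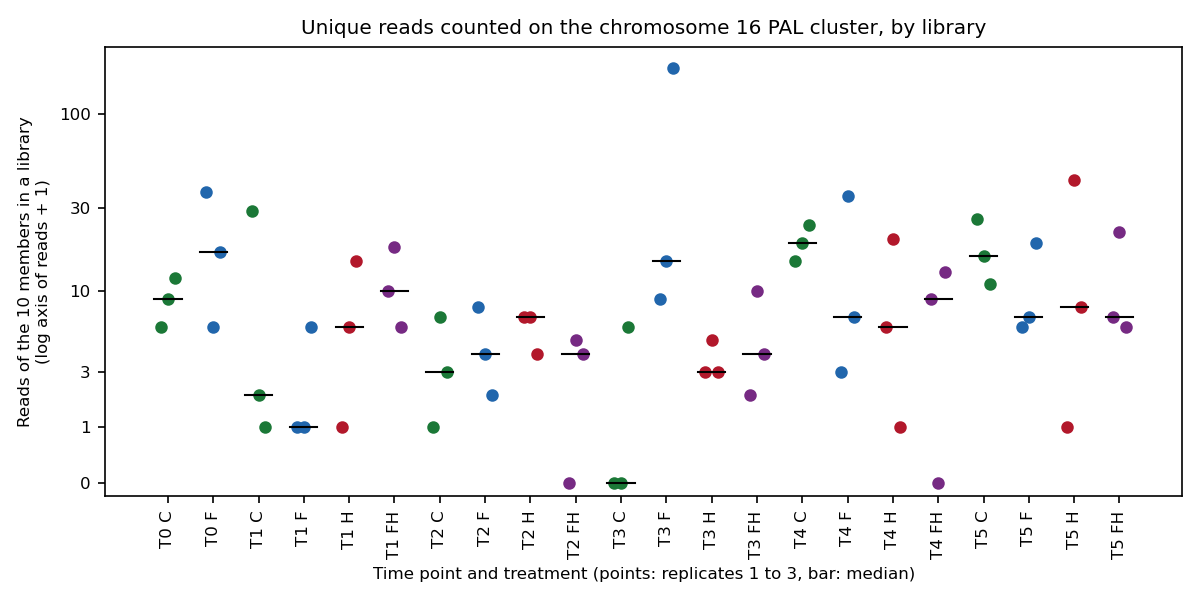
Reads of the 10 members summed in each of the 66 libraries (log axis of reads + 1), by time point and treatment, with 1 point per library and a bar at the median of 3. The points lie between 0 and 43 reads apart from T3 F replicate 3, at 178 reads.

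For the 7 members with reads, the totals over all libraries were small and unevenly spread. VIT_16s0039g01100 had 330 reads in 56 libraries, with a highest count of 72. VIT_16s0039g01130 had 166 reads in 39 libraries, with a highest count of 21. These were the only members past the filter of 0.5 CPM in at least 3 libraries, which 66.2% of all gene IDs passed, and they held 62.5% of the cluster's reads. Each reached 0.5 CPM in only 4 libraries. Those included T3 F replicate 3 for VIT_16s0039g01100 and T0 F replicate 1 for VIT_16s0039g01130, libraries on which calls given below rest. The other 5 detected members entered no test. VIT_16s0039g01110 had 87 reads in 30 libraries (highest count 23), and VIT_16s0039g01170 had 89 in 30 (highest 31). VIT_16s0039g01360 had 57 reads in 15 libraries (highest 24), and VIT_16s0039g01120 had 55 in 26 (highest 10). VIT_16s0039g01300 had 10 reads in 4 libraries, 3 of them of F vines. Gene lengths were not used here, so levels were not compared between members.

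**Figure D2:**
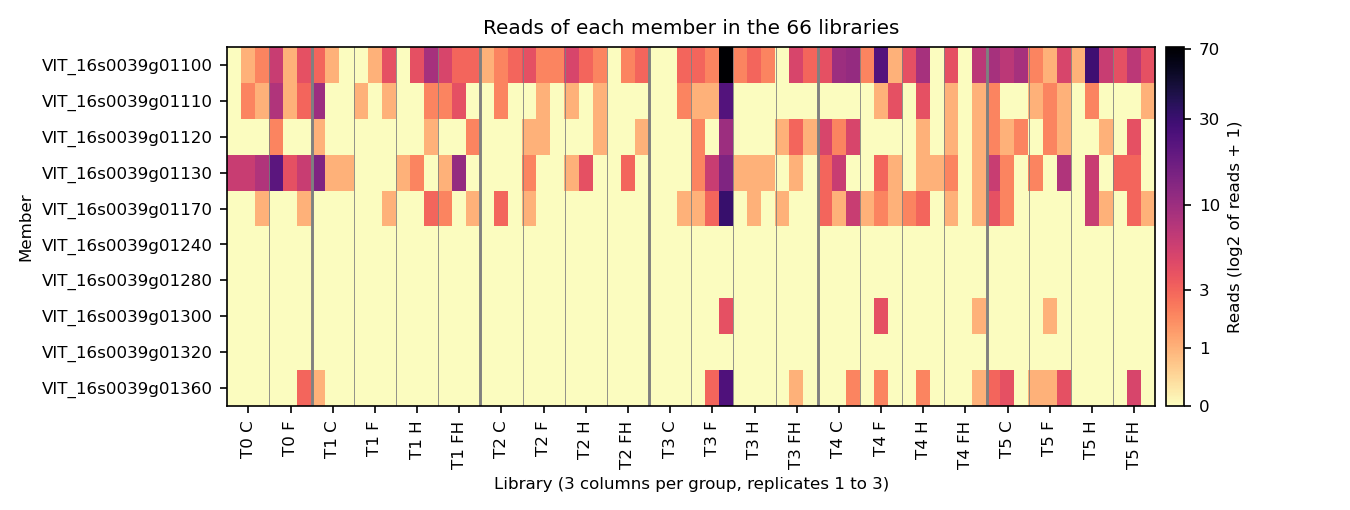
Reads of each member (rows) in each library (columns, 3 per group), coloured by log2 of reads + 1. The rows of VIT_16s0039g01240, VIT_16s0039g01280 and VIT_16s0039g01320 are empty, VIT_16s0039g01130 fills all 6 columns of T0, and in the column of T3 F replicate 3 all 7 detected members have reads.

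A single library stood apart. T3 F replicate 3 held 178 reads of the cluster (8.7 CPM), 22.4% of the total, and the next library, T5 H replicate 2, held 43 (1.97 CPM). Its counts were 72 for VIT_16s0039g01100, 23 for VIT_16s0039g01110, 10 for VIT_16s0039g01120, 14 for VIT_16s0039g01130, 31 for VIT_16s0039g01170, 4 for VIT_16s0039g01300 and 24 for VIT_16s0039g01360. It was the highest library, by CPM and with ties counted, for 6 of the 7 detected members, where 2.33% of all genes with reads had their highest value there. The exception was VIT_16s0039g01130, whose highest count was that of T0 F replicate 1. The other libraries of its group held 9 and 15 reads of the cluster. Its depth was ordinary (21212200 reads, TMM factor 0.965), and in it 6 tested genes stood at least 3-fold above every other library at 1 CPM or more, a number that ran from 0 to 28 over the 66 libraries. What set this library apart was not tested, and results that rest on it are given with and without it. Without it the cluster had 616 reads.

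Among replicates of 1 group the reads of the cluster varied by more than counting error in most groups. The chi-square per degree of freedom of the 3 libraries was above 3 in 13 of 22 groups and above 1 in 19. Values somewhat above 1 also arise from counting error alone, and the value is rough where a group held few reads. The median was 4.74, with a range from 0.163 in T3 H (3, 5 and 3 reads) to 125 in T3 F. In 13 groups the highest library had at least 2 times the CPM of the next. Examples were T1 C (29, 2 and 1 reads), T4 F (3, 35 and 7 reads) and T5 H (1, 43 and 8 reads). The members did so together to some degree. Over the 66 libraries the 15 pairs among the 6 members with at least 50 reads had a median Pearson r of 0.48 (range 0.187 to 0.707, log2 CPM), and without T3 F replicate 3 it was 0.29 (0.002 to 0.585). The highest r was that of VIT_16s0039g01100 with VIT_16s0039g01170, 0.707, or 0.585 without that library. The points share library depth and many zeros, so these values only describe the libraries.

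In controls the mean CPM of the cluster was lowest at T3 and highest at T4, although without T1 C replicate 1 the mean of T1 (0.0789 CPM) lay below that of T3. In C the libraries held 6, 9 and 12 reads at T0 (0.457 ± 0.16 CPM, SD, n = 3). The next stages gave 29, 2 and 1 reads (T1), 1, 7 and 3 reads (T2), then 0, 0 and 6 reads (T3, 0.126 ± 0.22 CPM). At T4 they held 15, 19 and 24 (0.898 ± 0.18 CPM), and at T5 26, 16 and 11 (0.731 ± 0.28 CPM). The 3 libraries of T4 C all lay above the 3 of T3 C, and those of T4 and T5 overlapped. In F the libraries held 37, 6 and 17 reads at T0 (1 ± 0.81 CPM), and 1, 1 and 6 at T1 (0.147 ± 0.16 CPM). Later F libraries held 8, 4 and 2 reads (T2), 9, 15 and 178 reads (T3), 3, 35 and 7 reads (T4), then 6, 7 and 19 reads (T5). F libraries of T0 and T1 overlapped at 6 reads. A sum over the members was not tested, since the members were listed with results of these data known. In whole-berry RNA, fewer cells that express a gene and less RNA per cell cannot be told apart.

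The members that supplied these reads differed between stages. At T0, VIT_16s0039g01130 gave 58.6% of the cluster's 87 reads and VIT_16s0039g01100 16.1%. At T1 the shares were 32.3% and 34.4% of 96 reads, and at T2 19.2% and 55.8% of 52 reads. From T3 to T5 VIT_16s0039g01130 gave 11.1 to 17.4% and VIT_16s0039g01100 40.4 to 49.3%, and without T3 F replicate 3 the shares at T3 were 21.1% and 40.4%. T0 pools 6 libraries of C and F, and each later stage 12 libraries of C, F, H and FH, so stage and treatment are mixed. In these pooled reads the share of VIT_16s0039g01130 was higher at T0 than at any later stage, and that of VIT_16s0039g01100 lower. In C alone VIT_16s0039g01130 gave 20 of 27 reads at T0 and 16 of 32 at T1, and VIT_16s0039g01100 3 and 4. In F they gave 31 and 11 of 60 reads at T0, and 0 and 5 of 8 at T1.

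VIT_16s0039g01130 was read in every library of T0. Its counts there were 6, 6 and 8 in C (0.338 ± 0.067 CPM) and 21, 4 and 6 in F (0.514 ± 0.48 CPM). At T1 they were 14, 1 and 1 in C and 0, 0 and 0 in F. The F groups of T0 and T1 did not overlap, whereas in C replicate 1 of T1 lay above all 3 libraries of T0. This member fell from T0 to T1 in F (edgeR log2 fold change -6.34, SE 1.94, adjusted p = 0.0067), and against the floor of 3 reads per library it was at least 3.09-fold lower. It was the 1 member of the 2 tested that was called in this contrast, in which 22.8% of the 19553 tested genes were called lower and 39.6% in either direction, so that a fall at this step was common among tested genes. Without T0 F replicate 1, the library with 21 reads, the adjusted p was 0.0503 and the call was lost (log2 fold change -5.19), and the bound was at least 1.45-fold lower. In a fit of the T0 and T1 libraries of F alone the gene did not pass the filter. In C the same step gave a log2 fold change of -0.31 (SE 1.11, adjusted p = 0.88), with 0 of 2 members called and 16.5% of genes called, and the sign turned without T1 C replicate 2 or 3 (log2 fold changes 0.19 and 0.16). Whether the step differed between F and C was not tested.

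**Figure D3:**
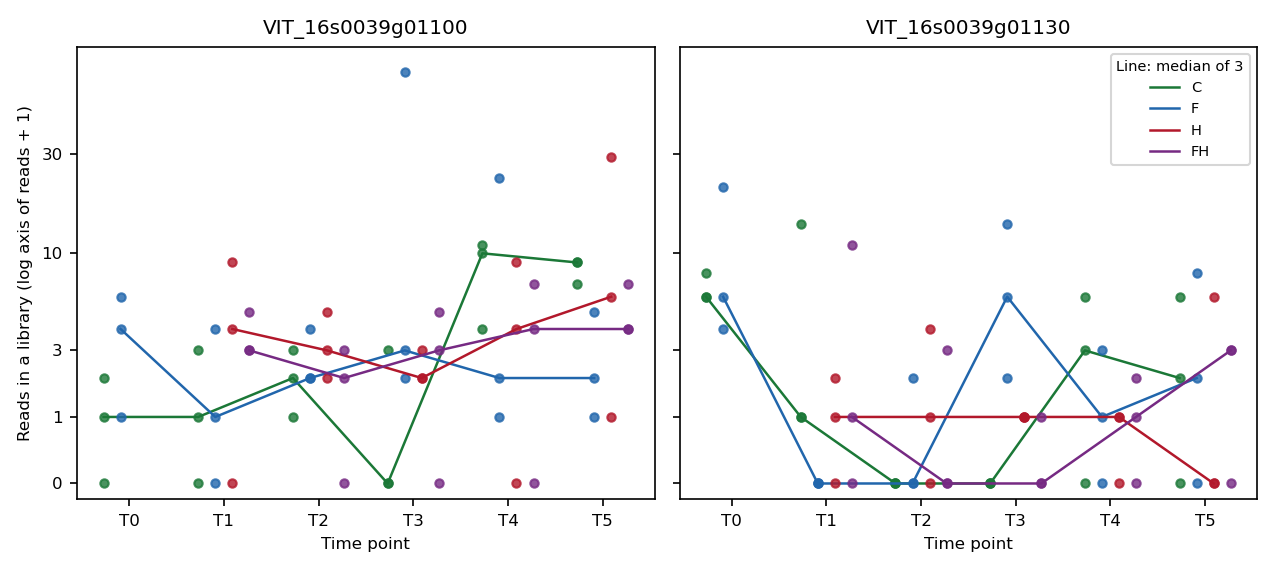
Reads of VIT_16s0039g01100 (left) and VIT_16s0039g01130 (right) in each library by time point and treatment (log axis of reads + 1), with lines through the medians of 3 libraries. VIT_16s0039g01130 is at 4 to 21 reads in the 6 libraries of T0 and at 0 in all 3 libraries of T1 F, T2 C and T3 C, and VIT_16s0039g01100 reaches 72 reads in T3 F replicate 3.

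In C the counts of VIT_16s0039g01130 reached 0 at T2 and T3. All 3 libraries of T2 C and of T3 C had 0 reads of it, below the 6 to 8 reads of T0 C. In comparisons with T0 that were added after the counts had been seen, it was lower at T2 in C (adjusted p = 0.02, at least 1.97-fold lower, 20.4% of genes called lower) and at T3 in C (adjusted p = 0.017, at least 2.03-fold lower, 23% of genes called lower). At T2 in F the counts were 2, 0 and 0, below those of T0 F, and the gene was called lower there too (log2 fold change -3.54, SE 1.42, adjusted p = 0.04, 21.2% of genes called lower). These calls were not firm. That at T2 in C was lost on leaving out any library of T2 C (adjusted p up to 0.0597), and that at T3 in C without T3 C replicate 2 (0.0532). That at T2 in F was lost without T0 F replicate 1, T2 F replicate 2 or T2 F replicate 3 (adjusted p = 0.237, 0.13 and 0.125) and with DESeq2 (0.0718) or no filter on low counts (0.064).

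Reads of VIT_16s0039g01130 were seen again at later stages. In C it had 3, 6 and 0 reads (T4) and 6, 2 and 0 reads (T5), all at or below those of T0 C. In F it had 2, 6 and 14 reads (T3), 0, 3 and 1 reads (T4) and 2, 0 and 8 reads (T5). At T4 and T5 neither tested member was called against T0 in C or in F (for VIT_16s0039g01130, edgeR adjusted p from 0.052 to 0.36), in contrasts that called 52.5% (T4, C), 56.9% (T5, C), 45.8% (T4, F) and 54.2% (T5, F) of genes. DESeq2 called 0 of them too, and these 8 tests held 2 unadjusted p under 0.05. Each of these contrasts had such a p for 11539 to 13275 of the 19553 tested genes. At T4 in F, VIT_16s0039g01130 was called lower than at T0 with RLE size factors (adjusted p = 0.0493) and without T0 F replicate 2 (0.0384) or T4 F replicate 2 (0.0469). The 2 tested members had 0 calls in the steps T2 over T1, T3 over T2, T4 over T3 and T5 over T4 within C, in which 19.2%, 0%, 14.7% and 3.86% of genes were called. Each step had an unadjusted p under 0.05 for 1310 to 7415 of the 19553 tested genes. The 8 tests of members in these steps included 2 such p, and DESeq2 called 0. The closest was VIT_16s0039g01130 from T1 to T2 (14, 1 and 1 reads, then 0, 0 and 0, adjusted p = 0.051), which was called without T1 C replicate 2 or 3 (adjusted p = 0.0425 and 0.0412). Without T1 C replicate 1, which held 14 of the 16 reads, the log2 fold change was -3.21 and the adjusted p 0.402. Within F the same steps, with 2.69%, 0.00511%, 1.35% and 2.02% of genes called, gave 0 calls of members with edgeR and with DESeq2 and 2 unadjusted p under 0.05. Each step in F had such a p for 2209 to 3955 of the 19553 tested genes.

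VIT_16s0039g01100 had its higher counts late. In C it had 0, 1 and 2 reads (T0), 3, 1 and 0 reads (T1), 1, 2 and 3 reads (T2), then 0, 0 and 3 reads (T3). It had 4, 10 and 11 reads in T4 C (0.379 ± 0.15 CPM) and 9, 7 and 9 in T5 C (0.351 ± 0.055 CPM). All 6 control libraries of T4 and T5 thus lay above all 12 earlier ones, yet no edgeR test passed. T4 over T3 gave a log2 fold change of 2.62 (SE 1.35, adjusted p = 0.17). Against T0 the values were 2.77 for T4 (SE 1.34, adjusted p = 0.071) and 2.64 for T5 (SE 1.34, adjusted p = 0.08). In F it had 6, 1 and 4 reads (T0), 2, 23 and 1 reads (T4) and 2, 1 and 5 reads (T5), and these groups overlapped. From T0 to T3 in F it was called higher (2.77, SE 1.08, adjusted p = 0.028, 20.3% of genes called higher), with 3, 2 and 72 reads at T3. Without T3 F replicate 3 the log2 fold change was -0.44 and the adjusted p 0.8, so that this call rested on that library. It was lost also without T0 F replicate 2 or 3 (adjusted p = 0.106 and 0.0568).

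VIT_16s0039g01120 and VIT_16s0039g01170, which entered no test with the filter, were also read late in C. VIT_16s0039g01120 had 0 reads in all libraries of T0, T2 and T3 of C and 1 in a library of T1, then 5, 2 and 5 at T4 and 2, 1 and 2 at T5. VIT_16s0039g01170 had 3, 1 and 6 reads at T4 C and 4, 2 and 0 at T5 C, against 0 to 3 in the libraries of T0 to T3. In a fit without the filter, in which 7 members were tested, VIT_16s0039g01120 was called higher at T4 than at T0 in C (adjusted p = 0.013, 20.2% of 25230 genes called higher) and VIT_16s0039g01170 at T3 than at T0 in F (adjusted p = 0.0063, 17.6% called higher). The counts of the latter were 1, 3 and 31 at T3 F, and its test without T3 F replicate 3 was not run. VIT_16s0039g01360 had 3 reads in T0 F replicate 3 and 1 in T1 C replicate 1, and no other library of T0 to T2 held any, whereas 6 of the 12 libraries of T5 held 1 to 5 reads of it. VIT_16s0039g01110 had 10 reads in T1 C replicate 1 and 0 in all 3 libraries of T4 C.

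Summer stress was examined as H over C and as FH over F from T1 to T5. At T1, before the heat, the cluster had 1, 6 and 15 reads in H against 29, 2 and 1 in C. During the heat it had 7, 7 and 4 reads against 1, 7 and 3 (T2), then 3, 5 and 3 against 0, 0 and 6 (T3). In recovery the order of the medians turned, with 6, 20 and 1 reads in H against 15, 19 and 24 in C at T4, and 1, 43 and 8 against 26, 16 and 11 at T5. The groups overlapped at every one of these time points. H over C called 0 of 2 tested members at each of T1 to T5, where it called 0.373%, 13.8%, 0.174%, 0.445% and 12.2% of genes. None of the 10 tests had an unadjusted p under 0.05, and DESeq2 called 0 as well. At T3 VIT_16s0039g01130 had 1 read in each H library and 0 in each C library, all under the floor of 3 reads. The SE of the log2 fold changes ran from 1.02 for VIT_16s0039g01100 at T5 to 2.43 for VIT_16s0039g01130 at T3, so that changes of several-fold could pass undetected at this depth.

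In vines flooded in spring, both tested members had lower mean counts in FH than in F at T3, without a call. The cluster had 2, 10 and 4 reads in FH and 9, 15 and 178 in F, with an overlap between 9 and 10. VIT_16s0039g01100 had 0, 5 and 3 reads in FH and 3, 2 and 72 in F (log2 fold change -3.05, SE 1.13, unadjusted p = 0.0095, edgeR adjusted p = 0.12), and without T3 F replicate 3 the value was 0.15. VIT_16s0039g01130 had 0, 1 and 0 reads in FH and 2, 6 and 14 in F, which did not overlap (log2 fold change -3.93, SE 1.6, adjusted p = 0.17), and without that library it was -3.12 (adjusted p = 0.51). At T1, VIT_16s0039g01130 had 1, 11 and 0 reads in FH and 0, 0 and 0 in F (adjusted p = 0.33). FH over F called 0 of 2 members at T1, T2, T3, T4 and T5 with edgeR and with DESeq2, with 3 unadjusted p under 0.05 among 10 tests, while it called 0.00511%, 2.85%, 2.94%, 0.194% and 13% of genes. At single time points, 1993 (T4) to 5975 (T5) of the 19553 tested genes had such an unadjusted p.

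**Figure D4:**
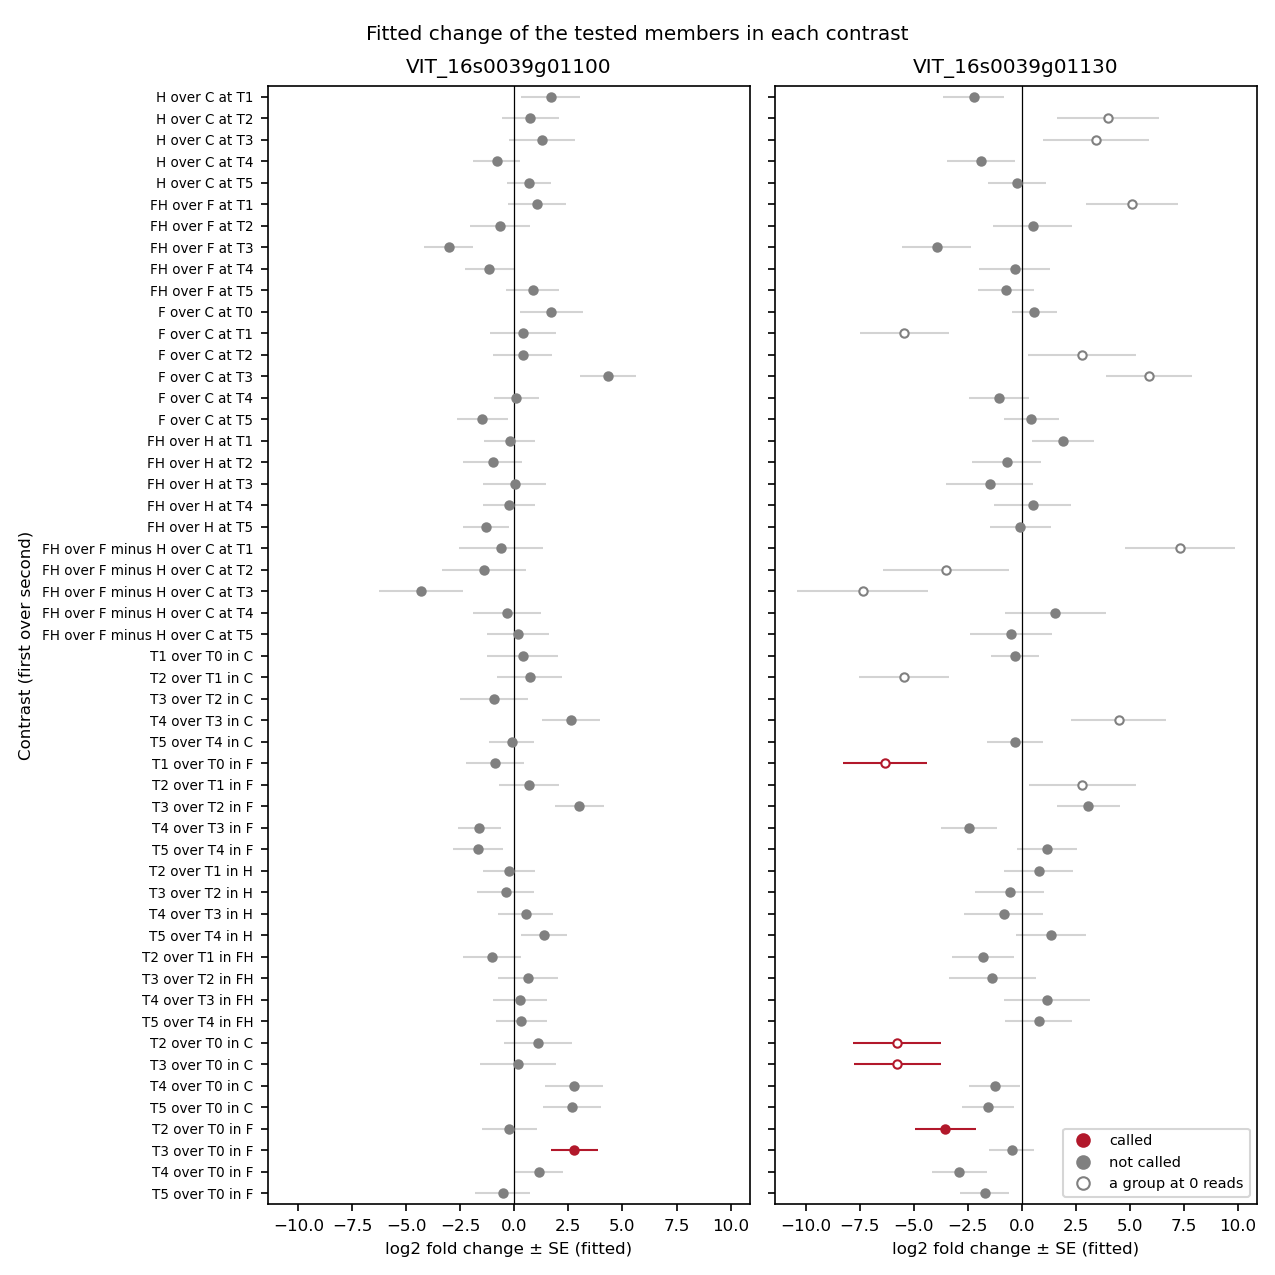
Fitted log2 fold changes (points) with SE (bars) of VIT_16s0039g01100 and VIT_16s0039g01130 in the 44 contrasts and the 8 added ones against T0, red where called. Open points have a group with 0 reads, where the fitted value depends on the prior count, and the contrast with 0 reads in both groups is left out. The calls are the fall of VIT_16s0039g01130 from T0 to T1 in F and 4 of the added contrasts.

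Spring flooding was examined as F over C and as FH over H. At T0 the cluster had 37, 6 and 17 reads in F and 6, 9 and 12 in C, and at T1 1, 1 and 6 in F and 29, 2 and 1 in C. Both pairs overlapped. At T1, VIT_16s0039g01130 had 0 reads in every F library and 14, 1 and 1 in C (log2 fold change -5.43, SE 2.06, edgeR adjusted p = 0.057), and it was called without T1 C replicate 2 or 3 (adjusted p = 0.0487 and 0.0445). With 0 reads in F the fitted value depends on the prior count, and against the floor it was at least 1.6-fold lower. Without T1 C replicate 1 the log2 fold change was -3.21 and the adjusted p 0.439. At T3 all 3 F libraries lay above all 3 C libraries, with 9, 15 and 178 reads against 0, 0 and 6. There VIT_16s0039g01130 had 2, 6 and 14 reads against 0, 0 and 0 (adjusted p = 0.55) and VIT_16s0039g01100 3, 2 and 72 against 0, 0 and 3 (log2 fold change 4.34, SE 1.29, adjusted p = 0.53). Without T3 F replicate 3 these had adjusted p of 0.739 and 0.94, and the log2 fold change of VIT_16s0039g01100 was 1.13. It was 7.64 without T3 C replicate 3, which left 0 reads in C. At T5 the order of VIT_16s0039g01100 was opposite, with 2, 1 and 5 reads in F and 9, 7 and 9 in C, without overlap (log2 fold change -1.48, SE 1.17, adjusted p = 1). F over C called 0 of 2 members at T0 to T5 with edgeR and with DESeq2, with 3 unadjusted p under 0.05 among 12 tests. Of all genes it called 0.0102% at T0, 14.7% at T1 and 0% at T2, T3, T4 and T5. At single time points, 386 (T2) to 6549 (T1) of the 19553 tested genes had an unadjusted p under 0.05.

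Among vines under summer stress the counts of flooded and unflooded vines overlapped at all time points. The cluster had 10, 18 and 6 reads in FH at T1 and 1, 6 and 15 in H. At T5 it had 7, 22 and 6 in FH and 1, 43 and 8 in H. FH over H called 0 of 2 members with edgeR and with DESeq2, with 0 of 10 unadjusted p under 0.05, where it called 0.65%, 0%, 1.36%, 0.0614% and 0% of genes from T1 to T5. The interaction of flooding and summer stress, that is FH over F set against H over C, was called for 0 of 2 members at each of T1 to T5 by edgeR and by DESeq2, with 3 unadjusted p under 0.05, among genes called at 0%, 0%, 0%, 0.00511% and 0.506%. The lowest unadjusted p was 0.0062, for VIT_16s0039g01130 at T1 (1, 2 and 0 reads in H, 14, 1 and 1 in C, 1, 11 and 0 in FH and 0, 0 and 0 in F), with an adjusted p of 1. The interaction had an unadjusted p under 0.05 for 463 (T2) to 2424 (T5) of the 19553 tested genes.

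Over all 44 contrasts, 1 of 88 tests of members was called and 14 had an unadjusted p under 0.05. Single contrasts among the 44 called 0 to 39.6% of all tested genes. In them edgeR gave an unadjusted p under 0.05 for 386 (F over C at T2) to 10530 (T1 over T0 in F) of the 19553 tested genes. Such p-values were thus common beyond the members. Time steps within stressed vines gave no call. In H the cluster's medians were 6, 7, 3, 6 and 8 reads from T1 to T5, and in FH they were 10, 4, 4, 9 and 7. Steps within H called 24.2%, 9.65%, 16.9% and 0.322% of genes from T2 over T1 to T5 over T4, and steps within FH 6.23%, 0.818%, 2.45% and 7.94%. The 2 tested members had 0 calls in them with edgeR and with DESeq2, and 0 of 16 unadjusted p under 0.05. Over T1 to T5 the 15 libraries of a treatment had medians of 7 reads in C, 7 in F, 6 in H and 6 in FH, with ranges of 0 to 29, 1 to 178, 1 to 43 and 0 to 22.

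Other genes that draw on or run beside the products of PAL are given for comparison between groups only. VIT_09s0018g01190 and VIT_11s0037g00440 encode hydroxycinnamoyl transferases (HCT), which act in the synthesis of chlorogenic acid and lignin precursors. VIT_09s0018g01190 fell from T0 to T1 in F, where it stood at 6.66 ± 2.9 CPM before and 1.32 ± 0.38 CPM after the step (adjusted p = 0.00095, log2 fold change -2.32, SE 0.58), the step in which VIT_16s0039g01130 was called. At the end of the heatwave it stood at 7.86 ± 3.4 CPM in H and 2.09 ± 0.97 in C, groups that did not overlap (adjusted p = 0.099, and 0.0384 with DESeq2). VIT_11s0037g00440 had 6.25 ± 3.5 CPM in H and 1.69 ± 0.66 in C at T3 (adjusted p = 0.16). In FH over F at T3 both genes overlapped between the groups, with 5.98 against 3.25 CPM for VIT_09s0018g01190 (adjusted p = 0.41) and 2.93 against 1.45 CPM for VIT_11s0037g00440 (adjusted p = 0.43). VIT_11s0037g00440 fell in H from T3 to T4, reaching 0.887 ± 0.73 CPM (adjusted p = 0.0033, log2 fold change -2.8, SE 0.68).

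VIT_17s0000g05750 encodes isochorismate synthase, which opens the route to salicylic acid that does not pass through PAL. It fell in F from 18.1 ± 1.2 CPM at T0 to 6.93 ± 0.23 at T1 (log2 fold change -1.39, SE 0.24, adjusted p = 7.6e-06), and at T1 it was lower in F than in C, which stood at 13.5 ± 1.6 CPM (log2 fold change -0.97, SE 0.24, adjusted p = 0.0042). The groups did not overlap in either comparison. In the comparisons with T0 that were added later it was lower at each of T2 to T5 in C and in F. A fall was common among tested genes, with 20.4% (T2, C), 23% (T3, C) and 21.2% (T2, F) called lower. At T4 and T5 these comparisons called 45.8 to 56.9% of genes in either direction. From T0 to T1 in F, 22.8% were called lower.

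Gene IDs around the members were not uniformly silent. Of the 15 other IDs between VIT_16s0039g01100 and VIT_16s0039g01360, 6 had no read and 6 passed the filter. Of the 24 other IDs on either side, between VIT_16s0039g01000 and VIT_16s0039g01500, 4 had no read and 15 passed. From T0 to T1 in F, the step of the call in VIT_16s0039g01130, 2 of the 6 inner IDs were called lower and 1 higher, and 2 of the 15 outer ones lower and 3 higher. In C 1 inner ID was lower and 2 outer ones were higher. Of all gene IDs, 14.6% had no read and 66.2% passed the filter. The inner IDs held at most 1582 reads over all libraries, below the median of 2688 reads over all gene IDs. Counts above that median were found only among the outer IDs, the highest at 321964 reads. Low counts were thus common among the inner IDs and not a property of all IDs in the wider stretch.

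Patterns close to that of the summed cluster were sought over the 22 group means of log2 CPM, among 12677 genes with a mean of at least 5 CPM. The most similar were VIT_18s0001g02420 (Pearson r 0.789, and 0.794 without T3 F replicate 3) and VIT_10s0003g00180 (0.739 and 0.793). The least similar were VIT_12s0059g02700 (-0.686 and -0.68) and VIT_01s0011g05850 (-0.663 and -0.743). VIT_18s0001g02420 ranged only from 9.57 to 20.2 CPM over the groups and VIT_10s0003g00180 from 8.88 to 20.3. These values were picked as the extremes of many and describe the group means only.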

How the data were processed

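Stranded single-end berry RNA libraries were aligned by the authors with TopHat to the 12X genome, and reads with a single mapping position were then counted for each gene. The study's methods state untrimmed reads and Bedtools coverage, and the submitters' processing notes name Trimmomatic 0.39 and featureCounts. The sources used here give no other version. The deposited values are raw read counts as the authors left them, with no normalization. Groups were taken from the sample titles.

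Here, rows sharing a gene ID (300 rows, 149 IDs) were summed. The filter kept 19553 genes that reached 0.5 CPM in 3 or more libraries. The main test was edgeR 4.0.16 under R 4.3.3 (quasi-likelihood, TMM, robust, 1 mean per group). A call needed a 1.5-fold change and a p under 0.05 after Benjamini-Hochberg adjustment across the tested genes. Contrasts give the first group over the second. The pipeline was tested on simulated data. Alternatives were DESeq2 1.42.0, RLE size factors, total counts for the cluster's CPM, no filter, only the libraries compared, the replicate block, rows kept separate, and leaving out each library with the dispersion trend retained. Members and lists were chosen with earlier results of these data known. All 10 members are named, as are 3 genes the study names near the pathway, HSP101 and the 2 genes most and least like the cluster. Other pathway genes were listed, but no source used here annotates their IDs, and they are not reported. The comparisons of T2 to T5 with T0 were added after the counts were seen. Floors cover counting error only, whereas the SD and the SE include variation between replicates.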

Additional observations from a re-analysis of the deposited data

How the results depend on the processing

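Counts of members called were compared over the alternatives. In the steps between consecutive time points within F, 1 member was called lower, and 0 with only the libraries compared, since no member passed the filter there. Leaving out 1 library gave 0 to 1 there, 0 to 1 for members lower in F over C and 0 to 1 for members lower in the steps within C, where the main values were 0. Of the added comparisons with T0, 1 call was higher, against 3 without the filter (7 members tested) and 0 to 1 on leaving out a library. The 3 lower calls were 4 with RLE size factors, 2 with DESeq2, 2 without the filter, and 2 to 4 on leaving out a library. With only the libraries compared, no member passed the filter in any comparison, so that setting tested none of these calls. Among named genes the sign of the log2 fold change turned on leaving out a library for VIT_16s0039g01130 from T0 to T1 in C (-2.55 to 0.19, above 0 without T1 C replicate 2 or 3, at 0.16 without the latter), and for VIT_16s0039g01100 in FH over F at T3 (-4.02 to 0.15) and T3 over T0 in F (-0.44 to 3.404), each without T3 F replicate 3. The mean CPM of the cluster moved by less than its SD in every group under RLE size factors and total counts. Leaving out 1 library moved it by over 1.5 times in 16 of 22 groups, as in T1 C (0.0789 to 0.773), T3 F (0.629 to 4.73) and T1 F (0.0558 to 0.193).

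Over all time points together, same replicate numbers did not mark paired samples. Single pairs of groups differed. At T0, C with F gave 0.181, 0.229 and 0.173 for same numbers and -0.182 to -0.004 for other numbers. At T2, C with H gave -0.34, -0.304 and 0.139 for same numbers. The deviations of same-number libraries from their group means had a median correlation of -0.007 over 93 pairs, 23 of them over 0.1. For other numbers the median was 0.01. The replicate block gave each replicate number of a time point its own term. Between time points its fit therefore compared single reference replicates and not group means. It cannot check those comparisons, and its values for them are not given. In H over C, FH over F, F over C and FH over H it called 0 members, as the main fit did.

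Depth limits all of these values: with a median of 6.5 reads per library, 3 reads correspond to 0.119 to 0.201 CPM, and 5 of the 7 detected members could not be tested. Reads shared by several copies were not counted.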
